A study of Rattus norvegicus with 6 samples.

Results

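Collagen genes are described here in the dorsal root ganglion, where the cell bodies of sensory neurons lie, in SD rats after nerve injury or a sham operation. Members were taken by gene symbol, as Col followed by a number, the letter a and a number, and 43 of the 18696 genes with group averages fitted that form. In the 3 SNI (spared nerve injury) libraries the sciatic nerve had lost its tibial and common peroneal branches, tied and cut, with the sural branch kept. In the 3 sham libraries the nerve had been exposed and the skin closed. Age, time after surgery, spinal level, side and any pooling of animals were not given in the sources used here. Values are TPM, the abundance of a gene's transcripts relative to all transcripts in the library, corrected for their length. They were given per library for 12 collagen genes (of 1637 genes in that table) and as a group average, with no error, for all 43.

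A collagen molecule is a rope of wound α chains, each built from repeats with glycine at every turn. Fibrillar collagens (types I, II, III, V, XI, XXIV and XXVII) assemble into tensile fibrils, some of which lie in the sheaths around nerves and ganglia. Type IV forms the network inside basement membranes, which surround Schwann cells with their axons, satellite glia with their neurons, and vessels; types XV and XVIII lie in the zone beside that network, and type VII anchors it to the tissue below. The others include FACIT collagens that sit on fibril surfaces (types IX, XII, XIV, XVI, XIX, XX and XXII), the beaded filaments of type VI, the short chain networks of types VIII and X, and transmembrane chains (types XIII, XVII and XXV). Fibroblasts, Schwann cells, endothelial cells and mural cells of peripheral nerve are all known to make collagens.

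Promoter windows are shown for the 3 collagens with the highest ratio of SNI to sham averages on the scale of TPM + 1 (Col16a1, Col18a1 and Col7a1), and for Col4a1, whose window is partly that of another member. RefSeq gave windows for 34 of the 43 genes (GRCr8 build, from 250 bases before to 50 after the gene start), printed 5′ to 3′ on the gene's strand. Col16a1 is at chr5:147672846-147673145, plus strand. Col18a1 is at chr20:11473395-11473694, plus strand. Col7a1 is at chr8:118483114-118483413, plus strand. Col4a1 is at chr16:84885347-84885646, plus strand. In the first 3, capitals mark matches to the GC box (a motif bound by factors of the Sp family) on either strand, and in Col4a1 the 176 bases that the window of Col4a2 holds too, on the other strand.
Col16a1: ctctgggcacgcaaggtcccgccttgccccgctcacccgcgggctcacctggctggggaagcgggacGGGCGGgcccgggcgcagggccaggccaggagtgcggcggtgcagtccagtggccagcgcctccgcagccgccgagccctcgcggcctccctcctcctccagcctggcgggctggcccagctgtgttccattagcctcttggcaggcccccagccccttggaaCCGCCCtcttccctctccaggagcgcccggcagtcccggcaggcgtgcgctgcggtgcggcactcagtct
Col18a1: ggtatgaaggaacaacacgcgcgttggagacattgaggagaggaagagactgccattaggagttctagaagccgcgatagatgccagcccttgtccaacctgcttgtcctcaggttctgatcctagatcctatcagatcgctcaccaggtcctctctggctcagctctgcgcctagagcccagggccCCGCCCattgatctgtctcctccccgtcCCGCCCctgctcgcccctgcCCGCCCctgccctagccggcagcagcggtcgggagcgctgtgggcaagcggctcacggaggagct
Col7a1: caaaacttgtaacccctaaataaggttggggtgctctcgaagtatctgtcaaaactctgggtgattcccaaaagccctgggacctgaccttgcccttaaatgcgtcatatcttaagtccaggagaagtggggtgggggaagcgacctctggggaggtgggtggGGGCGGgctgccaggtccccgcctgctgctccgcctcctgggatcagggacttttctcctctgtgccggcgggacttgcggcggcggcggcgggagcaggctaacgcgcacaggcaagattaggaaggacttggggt
Col4a1: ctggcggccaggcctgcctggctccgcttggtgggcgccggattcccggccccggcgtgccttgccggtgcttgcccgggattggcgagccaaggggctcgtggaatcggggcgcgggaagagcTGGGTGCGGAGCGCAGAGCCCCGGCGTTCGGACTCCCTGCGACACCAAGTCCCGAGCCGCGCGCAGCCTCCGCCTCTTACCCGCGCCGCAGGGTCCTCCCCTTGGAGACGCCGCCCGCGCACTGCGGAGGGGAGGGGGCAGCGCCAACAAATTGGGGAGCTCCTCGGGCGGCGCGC

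Short motifs, none of which contains another, were searched on both strands. The GC box (GGGCGG) was found 2 times in the Col16a1 window, 3 times in that of Col18a1 and 1 time in that of Col7a1. None of the other 3 motifs searched was in these windows. The GC box was in 18 of 34 collagen windows and in 34.9% of 27457 windows of all genes. The CCAAT box (CCAAT) was in 11 collagen windows and in 37.7% of all. The GC boxes and the CCAAT box of the Col4a2 window lie in the 176 bases shared with Col4a1, so both windows count the same sites. The TATA box (TATAAA) was in 4 collagen windows and in 14.3% of all. The AP-1 site (TGANTCA) was in 1 collagen window, that of Col6a1, and in 7.33% of all. A match describes letters only, and the binding of a factor was not measured here.

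The collagens of the ganglion were dominated by a few chains. In sham the highest averages were those of Col3a1 (152 TPM) and Col1a1 (146 TPM), the chains of the common fibrils of connective tissue, and of Col5a3 (108 TPM), a type V chain known from Schwann cells. Col4a1 and Col4a2, the ubiquitous chains of the basement membrane network, followed at 77.4 and 54.1 TPM, with Col1a2 (62.95 TPM) between them. In SNI, Col16a1 moved from the 9th to the 4th place and Col18a1 from the 14th to the 10th, while Col2a1 moved from the 17th to the 23rd. These orders are of averages with no error. In sham, the libraries of Col3a1 (150.92 to 154.1 TPM) and Col1a1 (137.5 to 151.29 TPM) overlapped, although Col3a1 was the higher within each library. In SNI those of Col1a1 (143.32 to 146.55 TPM) all lay above those of Col3a1 (137.37 to 142.15 TPM).

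**Figure D1:**
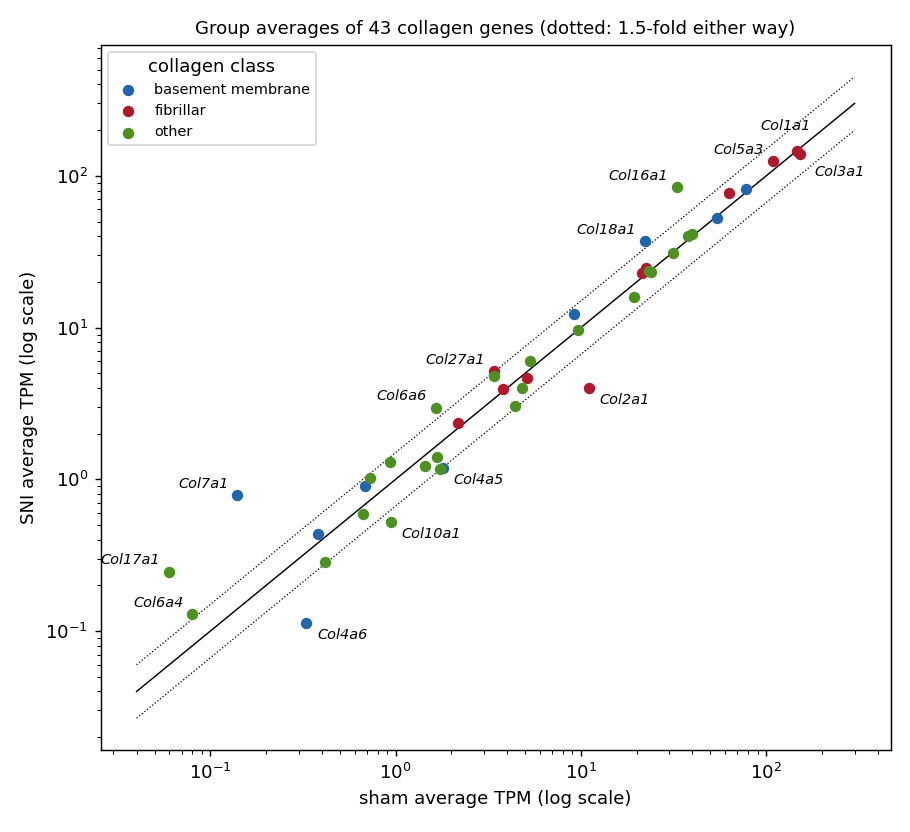
Average TPM of 43 collagen genes in sham (x axis, log scale) and SNI (y axis, log scale), colored by class; the solid line marks equal averages and the dotted lines 1.5 times either way on plain TPM. Most points follow the solid line over the whole range, with Col16a1 (33.0 and 84.7 TPM) and Col2a1 (11.1 and 4.02 TPM) farthest from it among genes above 1 TPM in both groups.

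Summed over all 43 genes, the averages came to 952 TPM (sham) and 1039 TPM (SNI). Fibrillar genes made up 56.6% of the sum in sham and 53.3% in SNI, basement membrane genes 17.5% and 17.9%, and the others 25.9% and 28.7%. Of the difference of 87.5 TPM between the sums, Col16a1 alone gave 51.7 TPM. Over the 12 genes with a value per library the sums were 589, 544 and 606 TPM in the sham libraries and 651, 643 and 670 TPM in the SNI libraries. The SNI sums were all higher, and an exact permutation test (two-sided, n = 3 each) gave p = 0.1, the smallest that 3 against 3 allows. Without Col16a1 the sums overlapped, with means of 547 ± 30.9 TPM in sham and 570 ± 10.7 TPM in SNI (SD, n = 3). As these are bulk tissue samples, a lower level from fewer cells of a type and one from less RNA per cell cannot be told apart, and likewise a higher level.

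Of the 43 averages, 25 were higher and 18 lower in SNI, beside 53.1% higher among all genes. The median log2 ratio of averages, computed as log2((SNI + 1)/(sham + 1)), was 0.06 over the collagens and 0.02 over all genes. It was 0.07 for the 11 fibrillar, 0.07 for the 9 basement membrane and 0.01 for the 23 other genes. Past a ratio of 1.5 on this scale, 4 collagens were higher (Col16a1, Col18a1, Col7a1 and Col6a6), beside 5.91% of all genes, and 1 was lower (Col2a1), beside 2.19%. In either direction that made 5 collagens, beside 8.1% of all genes. The authors' deposited list of higher genes held Col16a1, Col7a1 and Col17a1, beside 3.63% of all genes with averages. Their list of lower genes held Col2a1, beside 0.695% of all genes. Among genes with a larger average of at least 1 TPM, 3 of 34 collagens were past the ratio as higher and 1 as lower. Over all such genes it was 1066 and 402 of 14944. Whether the collagens' shares differ from those of all genes was not tested. By average read counts in place of TPM, 7 collagens were at least 1.5 times higher and 3 lower. Col6a6, just past the ratio of 1.5 at a log2 ratio of 0.59, and Col27a1, just short of it at 0.49, were the nearest to it on either side among higher genes.

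**Figure D2:**
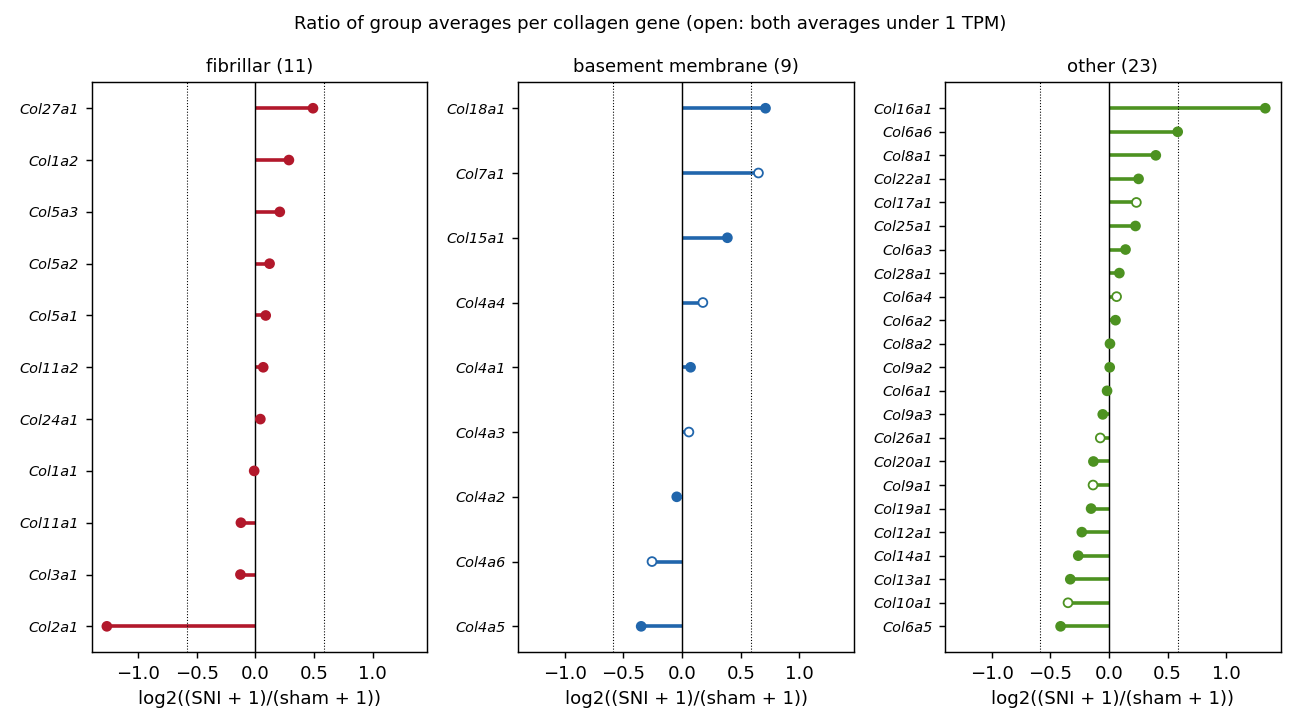
Log2 ratio of group averages, log2((SNI + 1)/(sham + 1)), for each collagen gene, by class; filled points have at least 1 average of 1 TPM or more, open points none, and dotted lines mark a ratio of 1.5 either way. Col16a1 (1.33), Col18a1 (0.71) and, as an open point, Col7a1 (0.65) lie past the upper line, Col2a1 (−1.27) past the lower line, and Col6a6 (0.59) on the upper line.

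The 12 genes with library values were tested with limma on log2(TPM + 1), fitted over 1596 genes of that table, with Benjamini-Hochberg adjustment over all of them. The table is a selection of the authors, and 61.2% of its tested genes were called at an adjusted p under 0.05. Of the 12 collagens, 4 were called higher (Col16a1, Col18a1, Col8a1 and Col1a2), beside 32% of the genes tested, and 1 lower (Col3a1), beside 29.2%. The other 7 did not pass. Among all genes tested, 510 were called higher and 466 lower, and after quantile normalization 402 and 608. The 3 SNI libraries lay wholly above sham in 6 of the 12 (35.3% of genes tested) and wholly below in 1 (31.3%), which made 7 without overlap (66.7%). The median log2 fold change was 0.11 over the 12 and 0.01 over all genes tested. Separate animals are not named for the libraries in the labels, so these p-values measure only the spread between samples, which may be technical.

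**Figure D3:**
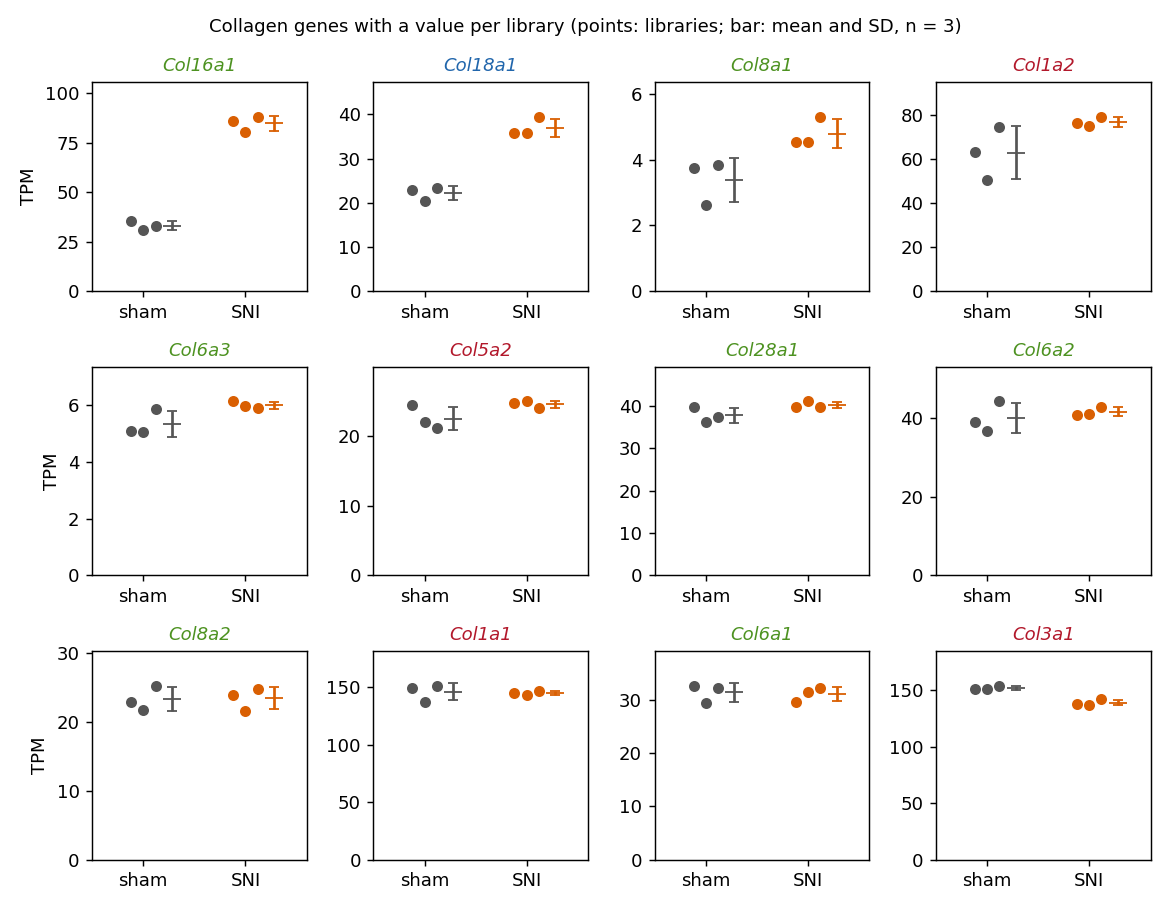
TPM of the 12 collagen genes with a value per library, each point a library (3 sham in grey, 3 SNI in orange), with mean and SD (n = 3) beside the points; y axes start at 0 and differ between panels, and title colors give the class as in the scatter of averages. The SNI points stand well above sham for Col16a1 and Col18a1, while for Col1a1, Col6a1, Col6a2, Col5a2 and Col8a2 the points of the groups overlap.

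Col16a1 (NCBI Gene ID 366474) encodes a FACIT chain found near fibrils and near basement membranes. It stood at 35.32, 30.95 and 32.84 TPM in the sham libraries and at 85.84, 80.39 and 87.94 TPM in the SNI libraries. The groups were far apart, and the libraries within each were close together. The mean rose from 33.0 ± 2.19 to 84.7 ± 3.90 TPM (SD, n = 3), which is 2.56-fold. The log2 fold change was 1.33 with SE 0.06 (limma adjusted p = 1.7e-07). The other FACIT genes were closer between groups in their averages. Col14a1, a chain of dense connective tissue, averaged 19.3 TPM (sham) and 15.9 TPM (SNI). Of the type IX chains, which decorate type II fibrils, Col9a3 averaged 23.96 and 23.1 TPM and Col9a2 9.60 and 9.65 TPM, again with sham first. Of the 9 FACIT genes, Col16a1 included, 3 had a higher and 6 a lower average in SNI, with a median log2 ratio of −0.13.

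Col18a1 (Gene ID 85251) encodes the α1 chain of type XVIII collagen, a heparan sulfate proteoglycan of basement membranes whose end piece is endostatin. Its values were 22.83, 20.39 and 23.37 TPM in sham against 35.72, 35.8 and 39.4 TPM in SNI. All 3 SNI libraries were above all 3 sham libraries, with a gap larger than the range within either group. The mean rose from 22.2 ± 1.59 to 37.0 ± 2.10 TPM (SD, n = 3), 1.67-fold, with a log2 fold change of 0.71 and SE 0.07 (limma adjusted p = 2e-05). Col15a1, the related type XV chain, averaged 9.13 TPM (sham) and 12.2 TPM (SNI), and Col7a1, the chain of anchoring fibrils, 0.140 and 0.790 TPM. Col7a1 rested on average read counts of 11.7 and 67.3. All 3 genes of the zone beside the basement membrane thus had a higher average in SNI, beside 53.1% of all genes. Their median log2 ratio of 0.65 is that of the scarce Col7a1, and only Col18a1 had library values.

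The type IV network itself showed little difference in the averages. Col4a1 averaged 77.4 TPM (sham) and 81.4 TPM (SNI), and Col4a2 54.1 and 52.3 TPM. The ratio of Col4a1 to Col4a2 was 1.43 in sham and 1.56 in SNI. In GRCr8 their starts lie 77 bases apart and face away from each other, so that the window printed for Col4a1 is shared in part. The 2 other type IV pairs are also arranged head to head, with 413 bases between the starts of Col4a4 and Col4a3 and 1415 between those of Col4a6 and Col4a5. Col4a5 averaged 1.79 and 1.19 TPM and its neighbour Col4a6 0.330 and 0.113 TPM, both lower in SNI. Col4a4 (0.683 and 0.903 TPM) and Col4a3 (0.380 and 0.437 TPM) both had a higher average in SNI. These low levels rested on few reads, such as average counts of 16 and 5.67 for Col4a6 and of 7 and 9.33 for Col4a4.

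Among fibrillar genes, the major chains of types I and III differed by small amounts between groups. Col3a1 (Gene ID 84032), the chain of fine fibrils, stood at 150.99, 150.92 and 154.1 TPM in sham against 137.99, 137.37 and 142.15 TPM in SNI. All SNI libraries were below sham, and the log2 fold change was −0.13 with SE 0.04 (limma adjusted p = 0.026). The call was lost without SNI replicate 1, SNI replicate 2 or sham replicate 3 (limma adjusted p = 0.097, 0.10 and 0.080). Col1a1 (Gene ID 29393) did not pass at 149.18, 137.5 and 151.29 TPM in sham against 145.28, 143.32 and 146.55 TPM in SNI. Its log2 fold change was −0.01, with a 95% interval of −0.12 to 0.10.

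Col1a2 (Gene ID 84352), which joins the α1 chains of Col1a1 in type I collagen, varied in sham at 63.49, 50.57 and 74.79 TPM and was even in SNI at 76.76, 75.06 and 79.22 TPM. The groups did not overlap, though the highest sham and the lowest SNI library nearly touched. Its log2 fold change of 0.30 with SE 0.12 passed narrowly (limma adjusted p = 0.047). It did not pass with no filter on low genes (limma adjusted p = 0.077), without the intensity trend (0.072) or after quantile normalization (0.055). It was also lost when any single library other than sham replicate 3 was left out, with limma adjusted p = 0.077, 0.076 and 0.13 without SNI replicates 1, 2 and 3 and 0.088 without sham replicate 1 or 2. Without sham replicate 2 the log2 fold change was 0.16, and without sham replicate 3 it was 0.44. The average read counts of Col1a2 were not whole when multiplied by 3, for which the cause was not tested, so its level and its ratio to Col1a1 may not rest on whole reads alone.

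Within a library, the ratio of Col1a1 to Col1a2 TPM does not depend on what share of the library other genes take. That ratio was 2.35, 2.72 and 2.02 in sham and 1.89, 1.91 and 1.85 in SNI. All SNI libraries were lower, and the spread in sham (2.36 ± 0.348, SD, n = 3) was wider than in SNI (1.88 ± 0.0307). The ratio of Col3a1 to Col1a1 was 1.01, 1.10 and 1.02 in sham and 0.950, 0.958 and 0.970 in SNI. For both ratios an exact permutation test (two-sided, n = 3 each) gave p = 0.1, the smallest this design allows, and 0.13 after adjustment over the 4 ratios computed. The ratio of Col3a1 to Col1a2 gave the same p, and that of Col6a1 to Col6a2 gave p = 0.3 in the exact test.

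The type V chains, which set fibril width, were close between groups. Col5a2 stood at 24.41, 22.03 and 21.15 TPM in sham against 24.79, 24.99 and 24.04 TPM in SNI, with overlap. It did not pass (log2 fold change 0.12, limma adjusted p = 0.12), but did without sham replicate 1 (limma adjusted p = 0.021). Col5a3 averaged 108 TPM (sham) and 125.5 TPM (SNI), and Col5a1 21.4 and 22.8 TPM. Of the minor fibrillar chains, Col27a1 averaged 3.40 and 5.19 TPM and Col11a1 5.15 and 4.65 TPM.

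Col2a1 (Gene ID 25412), the main chain of cartilage fibrils, had the lowest ratio of all 43 genes on the scale of TPM + 1, while on plain TPM that of the scarce Col4a6 was lower (0.343 against 0.363). It averaged 11.1 TPM (sham) and 4.02 TPM (SNI), with average read counts of 511 and 189, a log2 ratio of −1.27. With no value per library here, its spread is unknown. Other collagens of cartilage were closer between the groups: besides Col9a2 and Col9a3 above, Col11a2 averaged 2.18 and 2.33 TPM and Col9a1 0.413 and 0.287 TPM, while Col10a1, of hypertrophic cartilage, averaged 0.940 and 0.523 TPM. Of 12 cartilage and bone markers with averages, 9 were lower in SNI, some of them near 0, such as Dmp1 (0.18 and 0.11 TPM). The 12 summed to 173 TPM (sham) and 138 TPM (SNI), most of it Cnmd (109 and 83.9 TPM). Past a ratio of 1.5 and in the authors' deposited list of higher genes was Ibsp, a sialoprotein of bone (1.82 and 4.20 TPM), and Runx2, a transcription factor of bone, also had a higher average (1.76 and 2.79 TPM). Both tested members fell, beside 29.2% of all genes tested called lower and 61.2% called in either direction. Cnmd, chondromodulin of cartilage, fell by 0.37 on the log2 scale (limma adjusted p = 8.5e-05), and Hapln1, a link protein of cartilage and neural matrix, fell from 10.8 ± 1.11 to 5.49 ± 0.829 TPM (log2 fold change −0.86, limma adjusted p = 0.00011). Acan, the defining proteoglycan of cartilage, was near 0 in both groups (0.183 and 0.130 TPM). The part of these genes in the Col2a1 difference was not tested.

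Type VI collagen forms beaded filaments around cells, and its 3 common chains did not pass the test. Col6a1 stood at 32.64, 29.37 and 32.23 TPM in sham against 29.55, 31.52 and 32.11 TPM in SNI. Col6a2 stood at 38.95, 36.64 and 44.19 TPM in sham against 40.83, 40.96 and 42.85 TPM in SNI. For both chains the groups overlapped, with 95% intervals of the log2 fold change from −0.15 to 0.12 and from −0.10 to 0.22. Col6a3 stood at 5.1, 5.05 and 5.87 TPM in sham and, just above these, at 6.13, 5.96 and 5.89 TPM in SNI (log2 fold change 0.14, limma adjusted p = 0.17). After quantile normalization its direction turned (log2 fold change −0.15, limma adjusted p = 0.11). Of the rarer chains, Col6a6 averaged 1.65 and 2.97 TPM and Col6a5 4.39 and 3.05 TPM. The average read counts of both were not whole when multiplied by 3, for which the cause was not tested.

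Of the type VIII chains, made by endothelial cells, Col8a1 (Gene ID 304021) stood at 3.73, 2.61 and 3.82 TPM in sham against 4.54, 4.53 and 5.29 TPM in SNI. All SNI libraries were higher, and the log2 fold change was 0.41 with SE 0.13 (limma adjusted p = 0.021). The call was lost without SNI replicate 3 (limma adjusted p = 0.075) and with quantile-normalized values (log2 fold change 0.01, limma adjusted p = 0.92). Col8a2 overlapped at 22.91, 21.76 and 25.26 TPM in sham against 23.93, 21.63 and 24.82 TPM in SNI. Its log2 fold change was 0.01 and turned to −0.10 after quantile normalization, passing in neither. Col28a1, a collagen known from the surroundings of Schwann cells, stood at 39.72, 36.13 and 37.37 TPM in sham against 39.73, 41.06 and 39.82 TPM in SNI. Its groups just failed to overlap, and it did not pass (log2 fold change 0.09, limma adjusted p = 0.18). Col17a1, a transmembrane chain of epithelial attachment, averaged 0.0600 and 0.247 TPM with average read counts of 3 and 13, so that its place in the authors' deposited list rests on very few reads. There were 17 genes without library values under 5 TPM, outside both authors' lists and inside the ratio of 1.5 (TPM + 1 scale). Col4a5, Col6a5 and Col10a1 were among them. Averages of the 17 reached 4.83 TPM, and 7 were higher and 10 lower in SNI, with log2 ratios between −0.41 and 0.25. On plain TPM, Col4a5 (SNI over sham 0.665), Col10a1 (0.557) and Col4a6 (0.343) were past 1.5 as lower, and Col6a4 (1.625) as higher.

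Lists of genes that fold, process, bind and degrade collagen are described by averages, and by the test where a gene has library values. Over all genes the median log2 ratio of averages was 0.02, and of all genes tested 32% were called higher and 29.2% lower. Of 21 genes for folding and hydroxylation, 15 averages were higher in SNI and 6 lower (median log2 ratio 0.13). Fkbp10, a procollagen chaperone, rose from 14.4 ± 0.383 to 17.3 ± 0.840 TPM (limma adjusted p = 0.0068), a call lost after quantile normalization (limma adjusted p = 0.13). Serpinh1, the chaperone HSP47 that binds procollagen, averaged 133 TPM (sham) and 226 TPM (SNI). It is the 1 gene of that list past a ratio of 1.5 and was chosen after its value was seen. Of 14 genes for processing and cross-linking, 8 averages were higher and 6 lower (median 0.10), and of 4 tested 3 rose and 1 fell, beside 61.2% of all genes tested called in either direction. After quantile normalization 1 of the 3 rises, that of Lox, was lost.

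Pcolce, an enhancer of procollagen cleavage, rose from 34.6 ± 1.62 to 46.0 ± 1.25 TPM (log2 fold change 0.40, limma adjusted p = 0.00018). Bmp1, the protease that removes the C-terminal propeptide, rose from 21.1 ± 1.16 to 26.1 ± 1.34 TPM (limma adjusted p = 0.0033). Lox, which starts cross-links, rose from 6.03 ± 0.0950 to 8.11 ± 0.474 TPM (limma adjusted p = 0.0023), a call lost after quantile normalization (limma adjusted p = 0.24). The related Loxl1, the 1 gene that fell and named for that, averaged 13.3 ± 0.279 TPM (sham) and 11.6 ± 0.919 TPM (SNI), with limma adjusted p = 0.047. That call was lost without any one library but SNI replicate 3, at limma adjusted p = 0.055 to 0.18. Adamts2, which removes the N-terminal propeptide, was the 1 gene of the list past a ratio of 1.5, at 8.09 and 4.98 TPM, and was named after its value was seen.

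Of 18 matrix proteins that bind collagen fibrils, 6 were higher in SNI and 12 lower (median log2 ratio −0.12), and of 11 tested 2 rose, 5 fell and 4 did not pass, a share of calls close to the 61.2% of all genes tested. Thbs2, a thrombospondin, rose from 4.62 ± 0.165 to 8.06 ± 0.486 TPM (log2 fold change 0.69, limma adjusted p = 6.4e-05). Fn1, fibronectin, rose from 28.3 ± 1.68 to 43.9 ± 1.07 TPM (log2 fold change 0.62, limma adjusted p = 1.7e-05). Dpt, dermatopontin, fell from 7.58 ± 0.670 to 3.46 ± 0.477 TPM (log2 fold change −0.95, limma adjusted p = 5.5e-05). The authors' deposited lists held Postn as higher and Fmod, Omd, Aspn and Dpt as lower. Fmod, a proteoglycan that binds type I fibrils, averaged 11.7 and 4.71 TPM, and Postn, a matrix protein of remodelled tissue, 1.597 and 4.24 TPM, both named after their values were seen.

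Of 13 partners of collagen in basement membranes, 8 averages were higher in SNI and 5 lower (median log2 ratio 0.06), with none past a ratio of 1.5. Agrn, the proteoglycan agrin, rose from 20.3 ± 1.69 to 27.5 ± 0.944 TPM (log2 fold change 0.43, limma adjusted p = 0.00062). Lamb2, a laminin chain, fell from 43.9 ± 3.76 to 32.4 ± 0.918 TPM (log2 fold change −0.42, limma adjusted p = 0.00052), and Papln fell by 0.31 on the log2 scale (limma adjusted p = 0.0048). Of 12 collagen receptors, 7 averages were higher and 5 lower (median 0.10), and the 1 tested, the adhesion receptor Adgrg1, did not pass (limma adjusted p = 0.13). Itgb1, the β chain of collagen-binding integrins, averaged 196 and 286 TPM. Past a ratio of 1.5 were the platelet receptor Gp6 (0.323 and 1.09 TPM) and the integrin chain Itga11 (2.17 and 0.973 TPM), named after their values were seen.

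Among 10 collagen-degrading proteases, 6 averages were higher and 4 lower (median log2 ratio 0.15). Mmp2, the gelatinase of connective tissue cells, rose from 25.6 ± 0.554 to 35.8 ± 0.581 TPM (log2 fold change 0.47, limma adjusted p = 3.8e-05). With sham first, the averages were 2.91 and 13.1 TPM for Mmp16, a membrane-bound protease, 4.23 and 8.78 TPM for Mmp8, the collagenase of neutrophils, and 1.81 and 4.43 TPM for Mmp9, a gelatinase of leukocytes. Mmp13, the collagenase of cartilage and bone, averaged 4.51 and 0.840 TPM, and these 4 were named after their values were seen. Of 16 regulators of collagen transcription, 13 averages were higher and 3 lower (median 0.19). Il4ra and Il13ra1, receptor chains for cytokines of type II immunity, averaged 9.64 and 26.2 TPM and, for the second, 24.04 and 60.7 TPM. Tgfbr1, a receptor for TGF-β, averaged 6.99 and 12.2 TPM. These 3, and Scx below, were also named after their values were seen. Ctgf, a matricellular protein induced by TGF-β, fell from 13.6 ± 1.37 to 7.89 ± 0.269 TPM (log2 fold change −0.71, limma adjusted p = 6.2e-05), and Scx, a transcription factor of tendon, averaged 19.8 and 12.8 TPM.

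**Figure D4:**
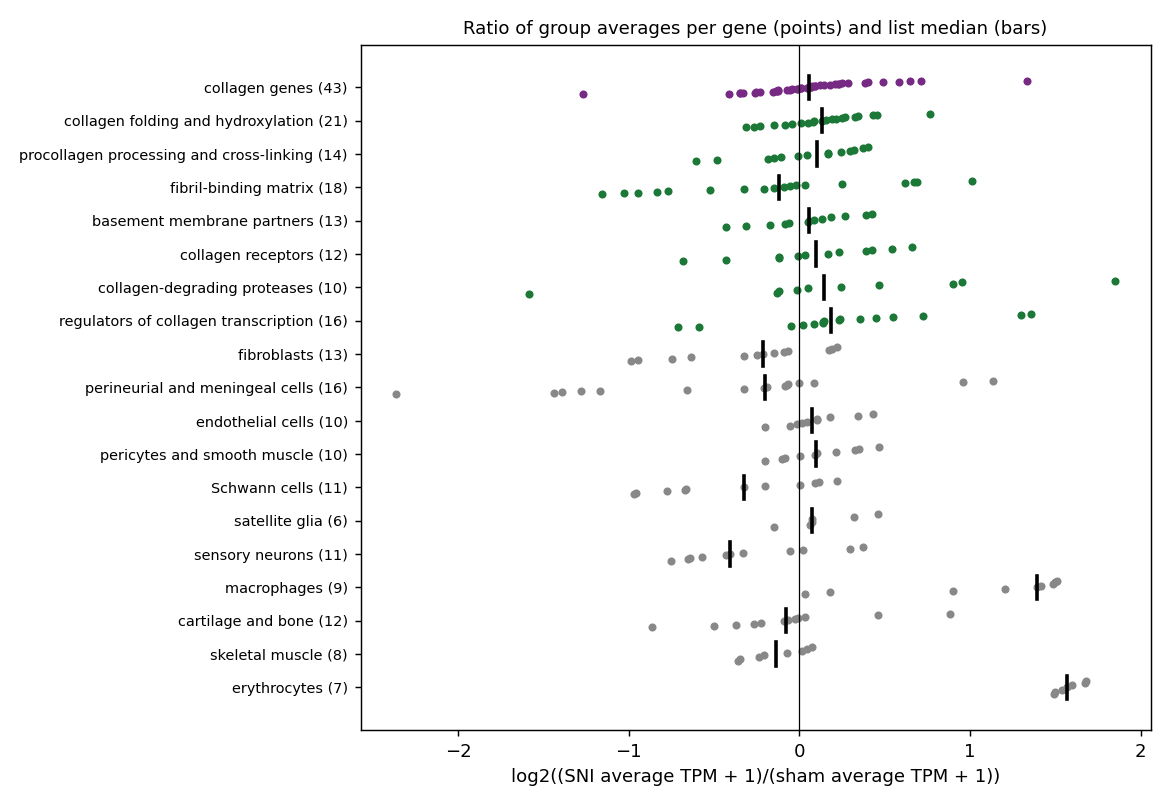
Log2 ratio of group averages, log2((SNI + 1)/(sham + 1)), for each gene (points) of the collagen family (purple), 7 lists of pathway genes (green) and 11 lists of cell type markers (grey), with a bar at each median; numbers of genes are in parentheses. The collagen points center near 0 (median 0.06), while the macrophage (1.39) and erythrocyte (1.57) medians lie far to the right.

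Markers of the cells that make collagen were set beside these values. Of 13 fibroblast markers, 10 averages were lower in SNI, and of 8 tested 5 fell and 3 did not pass, beside 61.2% of all genes tested called and 29.2% called lower. Their averages summed to 1278 TPM (sham) and 1034 TPM (SNI), and the 8 with library values to 949 to 989 TPM and 787 to 803 TPM. Of 16 perineurial and meningeal markers 13 were lower, with sums of 2547 and 837 TPM, most of it Ptgds, a prostaglandin synthase of the meninges (2127 and 413 TPM). The 7 of these with library values did not include Ptgds. They summed to 278 to 302 TPM in the sham libraries and were higher, 309 to 317 TPM, in the SNI libraries. By the test, however, 2 of these 7 rose, 3 fell and 2 did not pass, beside 61.2% of all genes tested called. Crabp2 rose from a mean of 36.4 TPM (sham) to 81.2 TPM (SNI), while Igf2 fell from 39.1 to 16.8 TPM and Slc6a20 from 18.8 to 6.55 TPM. Endothelial markers summed to 163 and 166 TPM (7 of 10 higher), and pericyte and smooth muscle markers to 141 and 158 TPM (7 of 10 higher).

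Schwann cell markers summed to 13591 and 8397 TPM, with 7 of 11 lower, and satellite glia markers to 8777 and 8017 TPM, although 5 of those 6 genes had a higher average. All 9 macrophage markers were higher, with sums of 110 and 248 TPM, as were all 7 erythrocyte markers (1375 and 4086 TPM). Of 11 sensory neuron markers 8 were lower, with sums of 33460 and 28118 TPM, and of 8 skeletal muscle markers 5 were lower, with sums of 23.8 and 22.3 TPM. The averages table holds no gene at 0, so no marker could be at 0 there, and 2 of the 14 listed for cartilage and bone had no value. All 11 neuron markers were well detected, from Isl1 (58.4 and 46.3 TPM) up to Nefl (7588 and 4497 TPM). The rises of Col16a1 and Col18a1 thus stood beside lower fibroblast and Schwann cell markers and higher macrophage markers. The part of any of these cells in the collagen values was not tested.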

How the data were processed

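Dorsal root ganglion RNA was sequenced in 3 SNI and 3 sham libraries. The authors deposited, per the file headers, a TPM value per library for 1637 genes, and for 18696 genes each group's average TPM and average read count. The deposited read counts are averages over a group and were treated as estimated counts. The 2 totals are nearly equal, and any scaling of them is unknown, so they may not be the reads sequenced. Multiplied by 3 they were whole (tolerance 0.001) in 65.4% of the sham and 64.8% of the SNI values. Each group's total was 18.6 M, and the depth of single libraries is unknown. The authors' higher and lower lists, deposited with KEGG pathway names, held 699 and 136 genes. Aligner, counter, build and strandedness were not given in the sources used here, so reads of overlapping or antisense genes may be mixed. The labels name a TruSeq and a NEBNext Ultra kit. Columns named control were taken as sham, the other group of the labels. In 1628 shared genes the library means matched the deposited averages within 0.001 TPM.

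Genes averaging 1 TPM or more over the libraries were fitted as log2(TPM + 1) with limma 3.58.1 (R 4.3.3; intensity trend, group as only term, Benjamini-Hochberg over 1596 genes, adjusted p under 0.05, checked on simulated data). TPM keeps no depth, and fold changes on this scale understate those of low genes. Ratios of averages used the pseudocount 1 and have no test. Alternatives were another pseudocount, filter, normalization and trend, a replicate block, and leaving out each library. Summaries and figures used Python 3.11.15 with pandas 2.3.3, numpy 2.4.6, scipy 1.17.1 and matplotlib 3.10.9.

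The members and the 18 gene lists were chosen with earlier results of these data known. Of 224 list entries, with some genes on more than 1 list, 217 matched the files, 3 of them under another symbol. Col4a3bp, a ceramide transporter, had been listed by its symbol and was taken out. Named collagens outside the library table had an average of at least 5 TPM, were in an authors' list, or passed a ratio of 1.5 at 1 TPM or more. For each pathway list, the 3 tested genes with the largest change among those that passed are named, or else the 2 most abundant, and Loxl1, Serpinh1, Adamts2 and others said to be so were added after values were seen. Promoter windows and chain ratios were chosen after values were seen.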

Additional observations from a re-analysis of the deposited data

How the results depend on the processing

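Col16a1 and Col18a1 kept their direction and their call in all 12 alternative fits. The 4 collagens called higher became 2 after quantile normalization and 2 to 4 when a library was left out. The 1 called lower became 2 after quantile normalization (Col6a1 added, limma adjusted p = 0.042) and 0 to 1 when a library was left out, where at an unadjusted p 0 were lower without SNI replicate 1 or 2 and 1 without sham replicate 3. The labels give no pairing by replicate number. Deviations of same-numbered libraries from their group means correlated at −0.09, −0.06 and 0.19, and sham replicate 1 correlated best with SNI replicate 2 (0.29). Deviations from a mean of 3 libraries depend on each other, so these values cannot settle whether the numbers pair the libraries. With a replicate block 4 collagens were called higher and 0 lower by limma (1 at an unadjusted p), Col3a1 moving to limma adjusted p = 0.051, and over all genes 498 were higher and 447 lower instead of 510 and 466. Among list genes, the block took Loxl1 to limma adjusted p = 0.077. Of the averages, 7 collagens were at least 1.5 times higher and 3 lower by read counts, 6 higher and 3 lower with a pseudocount of 0.1, and 1 was at least 2 times higher and 1 at least 2 times lower. Col6a3 and Col8a2, called in neither, turned to −0.15 and −0.10 after quantile normalization. The cause of these shifts was not tested. Precision was limited by 3 libraries a group, by averages without error for 31 collagens, and by average counts of under 100 reads for the lowest of them.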

Other observations

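The number of average reads behind 1 TPM, which grows with the length of the counted transcript, differed widely between collagen genes. Col12a1 had 115 reads per TPM, while Col4a4 had 10.3, less than any other member, although its partner Col4a3 had 48.1. The Col4a4 averages of 0.683 and 0.903 TPM therefore rested on 7 and 9.33 reads. In 6 collagens (Col1a2, Col15a1, Col6a5, Col6a6, Col11a2 and Col4a3) the average counts were not whole when multiplied by 3 (tolerance 0.001), for which the cause was not tested. Of the symbols listed for the collagen classes, Col21a1 and Col23a1 were not found among the genes with group averages.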
